A study of Rattus norvegicus with 21 samples.

Results

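Livers of male F344 rats that ate dammar resin (DAM) for 28 days at 800 mg/kg were set against livers of male F344 rats on basal diet (0 mg/kg). The comparison used the 6 arrays that the labels assign to these groups, 3 of DAM 800 and 3 of DAM 0, of 21 arrays in the series, and all 31042 probe sets that are not array controls. Of these, 18625 had a mean log2(signal + 16) above the 40th percentile over the 9 arrays of the DAM study and were tested. The series measured liver RNA of rats dosed with DAM or with piperonyl butoxide (PBO), on 1 short oligonucleotide array per animal. DAM 800 animals received 2% DAM in the diet, which the submitters equate with 800 mg/kg, and DAM 2000 animals received 5% for 28 days. PBO 500 animals were male Sprague-Dawley rats given 500 mg/kg PBO by mouth for 7 days, and PBO 0 animals received the methyl cellulose vehicle by the same route. DAM livers had been snap-frozen, whereas PBO livers were stored in RNAlater. Each of these groups held 3 animals, which the labels call biological replicates, and the ages of the animals are not given in the sources used here.

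Dammar resin is a triterpenoid-rich exudate of tropical trees, used in varnishes and as a food glaze and clouding agent. Liver cells meet such foreign compounds with nuclear receptors (CAR, PXR), the aryl hydrocarbon receptor (AhR) and the stress regulator NRF2, which switch on enzymes that oxidise, conjugate and export them. The same cells balance sterols through the SREBP2 programme of cholesterol synthesis and the exporter pair ABCG5 and ABCG8, and build fatty acids through SREBP1.

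Signals are MAS5 intensity values on a linear scale, and changes are differences of log2(signal + 16), DAM 800 minus DAM 0, with the standard error (SE) of a fit over the 9 arrays of the DAM study. The added 16 makes the changes of dim genes smaller than they are. A change was called when limma's adjusted p, over all 18625 probe sets, was under 0.05, and a gene was represented by its tested probe set with the highest mean. The 6 arrays had median signals of 76.0 to 83.0 in DAM 800 and 78.8 to 86.2 in DAM 0, and replicates of a group correlated at 0.983 to 0.984 in DAM 800 and 0.981 to 0.983 in DAM 0. Ratios of 3′ to 5′ signal of the control probe sets differed by -0.06 for GAPDH (two-sided exact permutation p = 0.4) and by -0.34 for actin (p = 0.2), where 3 against 3 arrays cannot go below 0.1. For the tissue label, hepatocyte markers such as albumin (Alb, mean signal 38251 in DAM 800 and 31960.2 in DAM 0), Ttr and Apob were among the bright probe sets. Of 14 listed markers of pancreas, muscle and fat 3 passed the filter, Cela1, Myh1 and Cfd. Their summed signal was 14069 to 15165 in DAM 800 and 14302 to 14683 in DAM 0, so at least 1 of them was bright in both groups. Prss1 of pancreas, Ckm of muscle and Adipoq of fat were among the listed markers below the filter.

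At 800 mg/kg DAM the sterol exporters Abcg5 and Abcg8, the steroid sulfotransferases Sult2a2 and Sult2a6, 14 of 18 tested CAR and PXR targets and 22 of 27 proteasome subunits rose. Apoa4 fell, as did 7 of 22 tested genes of fatty acid and triglyceride synthesis and 4 of 30 of gluconeogenesis and amino acid breakdown. Of the 18625 probe sets 705 were called (3.79%), 403 higher (2.16%) and 302 lower (1.62%). With each array scaled to its median the split was 456 higher and 166 lower. Leaving out 1 array gave 542 and 575 calls without DAM 0 replicates 2 and 3, 459 without DAM 0 replicate 1, and 445, 433 and 382 without DAM 800 replicates 1, 2 and 3. Changes of at least 1 log2 unit were found in 88 probe sets that rose and 48 that fell, and 118 of the called probe sets have no gene symbol or several. Per gene, 503 of 10670 were called (4.71%), 299 higher (2.80%) and 204 lower (1.91%), and the median change over all genes was -0.01. In 502 of these 503 genes the DAM 800 and DAM 0 animals did not overlap. Non-overlap alone was common: 11.7% of all genes had every DAM 800 animal above every DAM 0 animal, and 11.2% had every one below. Unadjusted limma p was under 0.05 for 1914 of the 10670 genes.

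**Figure D1:**
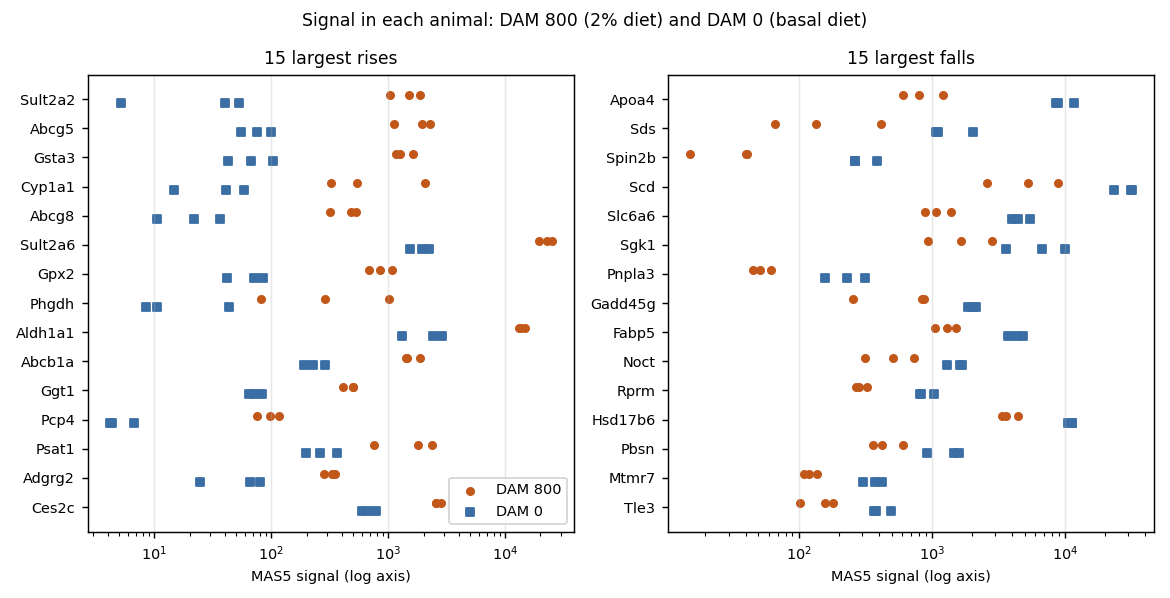
MAS5 signal (log axis) of each of the 3 DAM 800 animals (orange circles) and 3 DAM 0 animals (blue squares) for the 15 largest called rises and the 15 largest called falls. In all 30 genes, chosen for separated groups, the colours do not mix; Sult2a2 differs most at the top left and Apoa4 at the top right.

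The largest rise belonged to Sult2a2, a hydroxysteroid sulfotransferase that attaches sulfate to steroids and bile acids. Its signal was 1865, 1039.7 and 1504 in the DAM 800 animals, against 39.9, 5.18 and 53.3 in the DAM 0 animals. All 3 dosed animals were far above all controls, whose signals were near the floor of the array, and the change was 5.06 ± 0.35 (SE, n = 3 per group; limma adjusted p = 9.19e-06). Sult2a6, a related sulfotransferase, was already well expressed on basal diet. Its signals of 25111, 19545 and 22805 in DAM 800 stood against 2208, 1939 and 1541 in DAM 0. The groups did not overlap, and this gene had the smallest adjusted p of those named (change 3.56 ± 0.12, limma adjusted p = 1.26e-08). Probe sets of families with similar sequence, among them the Sult2a, Gsta, Cyp3a and Ugt2b genes, may read more than 1 member.

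Abcg5 and Abcg8 encode half-transporters that pair to pump cholesterol and plant sterols into bile and gut. Abcg5 had signals of 2281, 1926 and 1108 in DAM 800 livers, against 100.2, 76.0 and 54.7 in DAM 0 livers. Abcg8 had 532, 481 and 318 in DAM 800 livers, against 10.5, 36.6 and 22.0 in DAM 0 livers. Neither gene's groups overlapped, the third DAM 800 animal was the lowest of the dosed animals for both, and the changes were 4.23 ± 0.35 (limma adjusted p = 3.99e-05) and 3.58 ± 0.34 (limma adjusted p = 0.000109). The genes lie head to head, so that a single stretch of 205 bases separates their starts in the RefSeq annotation of GRCr8. It is shown because both genes moved together, is given on the plus strand at chr6:15717731-15717935 with Abcg8 reading to the left and Abcg5 to the right, and carries no capitals because no motif is marked.
Abcg5 and Abcg8: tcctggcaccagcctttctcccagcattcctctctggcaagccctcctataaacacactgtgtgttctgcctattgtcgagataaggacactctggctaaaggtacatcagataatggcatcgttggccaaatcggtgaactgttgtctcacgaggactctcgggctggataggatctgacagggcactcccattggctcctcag

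The other genes with the 15 largest rises had varied roles. Gsta3, an alpha class glutathione S-transferase, had signals of 1634, 1263 and 1161 in DAM 800 and 42.9, 66.4 and 103 in DAM 0 (change 4.03 ± 0.22, limma adjusted p = 1.52e-06). Cyp1a1, the cytochrome P450 that marks AhR activity, had 541, 2077 and 325 in DAM 800 and 14.8, 58.6 and 41.1 in DAM 0. Its 3 dosed animals spread widely but stayed above every control, and the change of 3.85 ± 0.55 (limma adjusted p = 0.00192) was 3.10 without DAM 800 replicate 2. The drug exporter Abcb1a (P-glycoprotein) had 1878, 1457 and 1414 in DAM 800 and 227, 288 and 191 in DAM 0. That change of 2.68 ± 0.14 had a limma adjusted p = 1.41e-06. Aldh1a1, a retinal dehydrogenase, rose by 2.72 ± 0.20, the carboxylesterase Ces2c by 1.93 ± 0.14, the glutathione peroxidase Gpx2 by 3.44 ± 0.21 and the gamma-glutamyl transferase Ggt1 by 2.43 ± 0.14. Adgrg2, an adhesion receptor, rose by 2.30 ± 0.26, and Pcp4, a calmodulin regulator, by 2.40 ± 0.49. Pcp4 had 117, 97.0 and 75.9 in DAM 800 and 6.65, 4.30 and 4.17 in DAM 0, and passed the filter only through the dosed groups. Its call was lost without DAM 0 replicate 2 (limma adjusted p = 0.0523), and without DAM 800 replicate 1 or 2, or with only the 6 compared arrays or a pseudocount of 1, it was below the filter and not tested. Sult2a2, Abcg8, Cyp1a1 and Phgdh also had low DAM 0 signals, 5.18 to 58.6, at levels where other genes failed the filter. Their high signals in the dosed animals carried them past it.

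Phgdh and Psat1, which encode enzymes of the path from glycolysis to serine, completed the 15. Phgdh was uneven among dosed animals, with signals of 81.7, 1023 and 287 in DAM 800 and 8.52, 43.7 and 10.5 in DAM 0. The groups stayed apart, and the change of 3.21 ± 0.66 (limma adjusted p = 0.0176) lost its call without DAM 0 replicate 1 (adjusted p = 0.0679), DAM 0 replicate 3 (adjusted p = 0.058) or DAM 800 replicate 3 (adjusted p = 0.0594), and was 4.05 without DAM 800 replicate 1 and 2.35 without DAM 800 replicate 2. Psat1 had 754, 2342 and 1791 in DAM 800 and 262, 362 and 196 in DAM 0, a change of 2.40 ± 0.37 (limma adjusted p = 0.00317). Replicate 1 was the lowest of the dosed animals for both genes. Asns, the asparagine synthetase that shares the regulator ATF4, had 88.7, 688 and 312 in DAM 800 and 115, 114 and 80.8 in DAM 0. Those groups overlapped and the change of 1.29 ± 0.49 was not called (limma adjusted p = 0.204). Of 21 tested members of the list of serine synthesis and ATF4 targets 3 rose, Phgdh, Psat1 and the amino acid transporter subunit Slc3a2 (0.67 ± 0.12), beside 2.80% of all genes called higher. The glutathione-degrading enzyme Chac1 fell by 0.68 on the log2 scale (limma adjusted p = 0.047), a call kept only without DAM 0 replicate 2 (adjusted p 0.0512 to 0.167 without any other array).

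Among the falls, Apoa4, an apolipoprotein of triglyceride-rich particles, was the deepest. It had signals of 614, 808 and 1218 in DAM 800 livers, against 8589, 8844 and 11614 in DAM 0 livers, a change of -3.48 ± 0.25 (limma adjusted p = 1.17e-05). Slc6a6, which takes up taurine, had 1075, 889.6 and 1389 in DAM 800 and 3978, 5498 and 4475 in DAM 0. It fell by 2.05 on the log2 scale (SE 0.18, limma adjusted p = 5.3e-05), with every dosed animal below every control. The fatty acid binding protein Fabp5 changed by -1.73 ± 0.19, Spin2b of the spindlin family by -2.76 ± 0.32 and the steroid dehydrogenase Hsd17b6 by -1.54 ± 0.14. Probasin (Pbsn), a lipocalin known from rat prostate, changed by -1.49 ± 0.22, Rprm (reprimo, known from p53-dependent cell cycle arrest) by -1.55 ± 0.22, the lipid phosphatase family member Mtmr7 by -1.46 ± 0.17 and the co-repressor Tle3 by -1.42 ± 0.21.

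Others of the 15 largest falls rested on uneven animals. Sds, which breaks serine down to pyruvate, had 67.0, 418 and 135 in DAM 800 and 1079.7, 1121 and 2055 in DAM 0 (change -2.96 ± 0.59, limma adjusted p = 0.0149). Its call was lost without DAM 0 replicate 3 (adjusted p = 0.0562), DAM 800 replicate 1 (adjusted p = 0.0583) or DAM 800 replicate 3 (adjusted p = 0.0594). With DAM 800 replicate 2 left out the change was -3.61. Sgk1, a kinase induced by glucocorticoids, had 1669, 2844 and 932 in DAM 800 and 10084, 6684 and 3599.6 in DAM 0 (change -1.91 ± 0.39). Leaving out DAM 0 replicate 1, DAM 0 replicate 2, DAM 800 replicate 1 or DAM 800 replicate 3 gave Sgk1 adjusted p of 0.0652, 0.0588, 0.0538 and 0.0613. Gadd45g, a stress-response gene, changed by -1.78 ± 0.42, with 255 in the third DAM 800 animal, 848 to 881 in the others and 1869 to 2152 in DAM 0. Its call was lost without any 1 of the DAM 0 arrays or without DAM 800 replicate 3 (adjusted p 0.0717 to 0.103).

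Targets of CAR and PXR rose together. Of 18 tested members 14 rose and none fell, with a median change of 0.85, against -0.01 over all genes, of which 2.80% rose. Beside Sult2a2, Abcb1a, Aldh1a1 and Ces2c, the P450 Cyp3a18 rose by 0.85 ± 0.07 and the P450 Cyp3a23-3a1 by 0.54 ± 0.09. Cyp3a23-3a1 had 41868, 37374 and 43373 in DAM 800 and 24869, 30526 and 28990.2 in DAM 0. Every dosed animal was above every control. P450 reductase (Por), the electron donor of these enzymes, rose by 0.77 ± 0.13, the first haem synthesis enzyme Alas1 by 0.79 ± 0.13, the glucuronosyltransferase Ugt2b1 by 1.60 ± 0.17 and epoxide hydrolase Ephx1 by 0.86 ± 0.09. Gadd45b, a growth arrest gene used as a CAR target, had 939.9, 616 and 338 in DAM 800 and 186, 168 and 182 in DAM 0 (change 1.62 ± 0.33, limma adjusted p = 0.0158). That call was lost without DAM 0 replicate 2, DAM 800 replicate 1 or DAM 800 replicate 2 (adjusted p 0.0554 to 0.0583). Cyp3a2, Cyp2b3, Cyp2c7 and Cyp3a9 were not called, with changes of 0.44, 0.13, 0.13 and 0.18, and Cyp2b1 was not analysed here.

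Of 5 tested AhR targets 2 rose, Cyp1a1 and Nqo1, beside 2.80% of all genes called higher. Nqo1 also stands on the NRF2 list. Ahrr, below the filter and not tested, had signals near the floor, 14.5, 3.02 and 3.21 in DAM 800 and 21.9, 25.1 and 34.9 in DAM 0. Tiparp and Cyp1b1 changed by -0.12 and 0.03 without a call. Cyp1a2, a P450 that usually rises with Cyp1a1, had 10348, 15509.6 and 11004 in DAM 800 and 14690.2, 11578 and 12587 in DAM 0. These ranges overlapped, with a change of -0.09 (95% interval -0.42 to 0.24, limma adjusted p = 0.831). None of the 4 tested flavin monooxygenases was called by limma, and 0 had an unadjusted p under 0.05, beside 1914 of all 10670 genes.

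**Figure D2:**
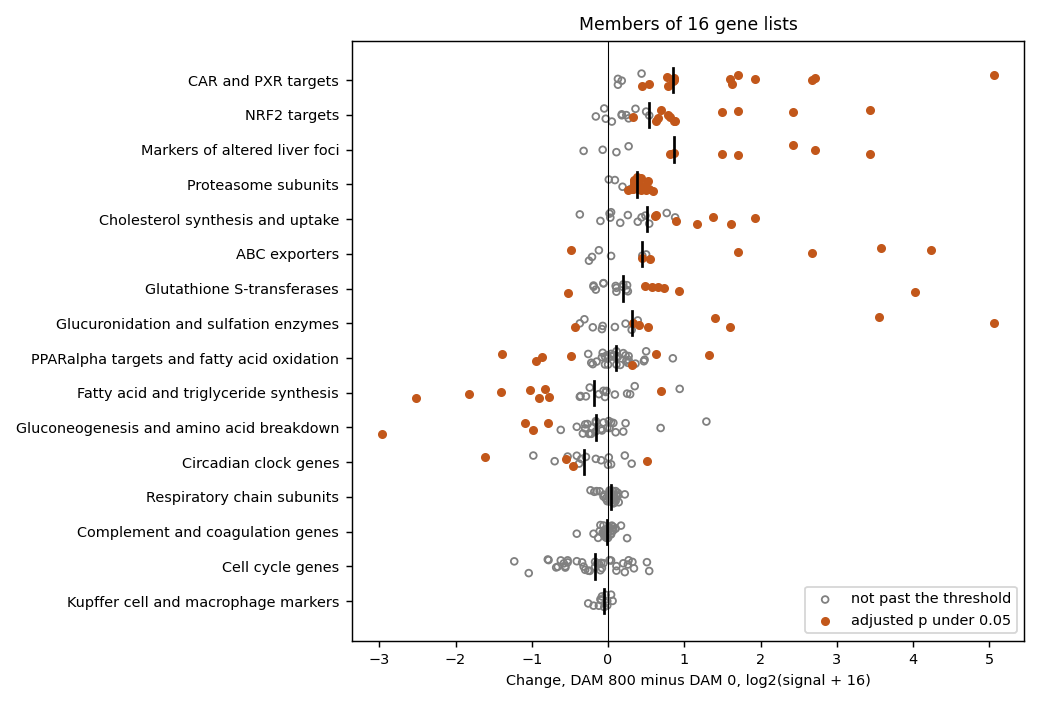
Change of each tested member (DAM 800 minus DAM 0, log2 scale) in 16 gene lists; filled points passed the adjusted p threshold, open points did not, and black bars are list medians. CAR and PXR targets (median 0.85), NRF2 targets (0.54), markers of altered foci (0.86) and proteasome subunits (0.38) lie to the right of 0, while complement and Kupffer cell genes centre on 0.

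NRF2 targets, which defend against electrophiles and peroxides, had 12 rises and no fall among 23 tested, with a median change of 0.54. Over all genes 2.80% were called higher and 1.91% lower. Gpx2 had signals of 685, 1069 and 847 in DAM 800 and 71.2, 42.1 and 85.4 in DAM 0, and Ggt1 had 495, 408 and 498 in DAM 800 and 73.1, 83.8 and 64.7 in DAM 0. Both were separated between groups with little spread among dosed animals. The aldehyde reductase Akr7a3 rose by 1.49 ± 0.18, glutathione reductase Gsr by 0.88 ± 0.11, the quinone reductase Nqo1 by 0.81 ± 0.11 and the glutamate-cysteine ligase subunit Gclc by 0.65 ± 0.12. Haem oxygenase Hmox1, thioredoxin reductase Txnrd1 and the ligase subunit Gclm were not called, with changes of 0.24, 0.36 and 0.54. Of 20 tested glutathione S-transferases 6 rose and 1 fell (median 0.20): Gstm3 rose by 0.93 ± 0.22, Gstm4 by 0.74 ± 0.14, Gstm2 by 0.65 ± 0.07 and Gstm1 by 0.58 ± 0.08, while Gstm7 changed by -0.52 ± 0.09. The Gstm3 call was lost without DAM 0 replicate 1 or 3 or DAM 800 replicate 1 or 3.

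The promoters of 3 genes that rose are shown with matches to TGACNNNGC, the core of the antioxidant response element bound by NRF2, in capitals. Both strands were searched in the 250 bases before each RefSeq start (GRCr8), and the letters TGAC also occur in AP-1 and CRE motifs. The motif was found in 10.2% of 27457 rat promoters, in 4 of 20 tested NRF2 targets with a promoter in the RefSeq table (20%), 3 of them among the 10 called (30.0%), and in 4 of 24 tested proteasome genes (16.7%), 3 of them among the 19 called (15.8%). It was also in 4 of 16 tested cholesterol genes (25.0%) and 4 of 17 tested fatty acid and triglyceride synthesis genes (23.5%). Among tested CAR and PXR targets it was in 0 of 17, and among AhR targets in 0 of 4. Gsta3 lies at chr9:31154739-31154988 on the plus strand, Gpx2 at chr6:101230034-101230283 on the minus strand and Psmb5 at chr15:32047380-32047629 on the minus strand, and each is written in the sense of its gene. The match in Gpx2 reads on the opposite strand, so that its capitals spell the reverse complement.
Gsta3: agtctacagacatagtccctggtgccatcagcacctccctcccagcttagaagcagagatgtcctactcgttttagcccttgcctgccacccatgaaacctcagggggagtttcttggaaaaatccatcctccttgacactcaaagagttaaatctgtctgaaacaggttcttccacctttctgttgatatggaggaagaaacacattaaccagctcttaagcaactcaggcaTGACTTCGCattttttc
Gpx2: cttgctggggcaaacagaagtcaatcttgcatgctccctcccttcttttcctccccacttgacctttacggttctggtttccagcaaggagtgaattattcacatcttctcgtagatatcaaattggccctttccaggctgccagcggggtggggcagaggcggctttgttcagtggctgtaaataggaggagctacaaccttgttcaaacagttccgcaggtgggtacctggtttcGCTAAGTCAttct
Psmb5: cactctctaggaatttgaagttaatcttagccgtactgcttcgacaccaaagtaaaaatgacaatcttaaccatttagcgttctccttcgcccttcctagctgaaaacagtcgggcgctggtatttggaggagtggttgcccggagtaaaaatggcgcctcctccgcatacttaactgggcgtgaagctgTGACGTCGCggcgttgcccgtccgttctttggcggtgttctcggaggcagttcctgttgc

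Most proteasome subunits rose by small amounts. The proteasome is the complex that degrades ubiquitin-tagged proteins, with a core of alpha and beta subunits and a regulatory cap of ATPases and other subunits. Of 27 tested subunit genes 22 rose and none fell, with a median of 0.38, beside 2.80% of all genes called higher. In 23 of the 27 every DAM 800 animal was above every DAM 0 animal, as in 11.7% of all genes. Psmb5, a catalytic beta subunit, had 8222, 8511 and 9184 in DAM 800 and 5908, 6504 and 6038 in DAM 0 (change 0.49 ± 0.07, limma adjusted p = 0.0019). Psmc5, an ATPase of the cap, had 3204, 3863 and 3549.6 in DAM 800 and 2319, 2363 and 2329.8 in DAM 0 (change 0.59 ± 0.08, limma adjusted p = 0.00094). The alpha subunit Psma7 rose by 0.50 ± 0.06 and the scaffold subunit Psmd2 of the cap by 0.43 ± 0.08. The 5 members not called, Psmd7, Psma1, Psmd3, Psma3 and Psmc6, had changes of 0.30, 0.36, 0.19, 0.09 and 0.01. Without DAM 800 replicate 3 the count of rises was 11, and with a variance estimate that ignores the intensity trend it was 6. Of 19 tested ribosomal proteins and 30 respiratory chain subunits, none was called by limma (medians 0.11 and 0.04). Unadjusted p was under 0.05 for 2 and 1 of them, and for 1914 of all 10670 genes.

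**Figure D3:**
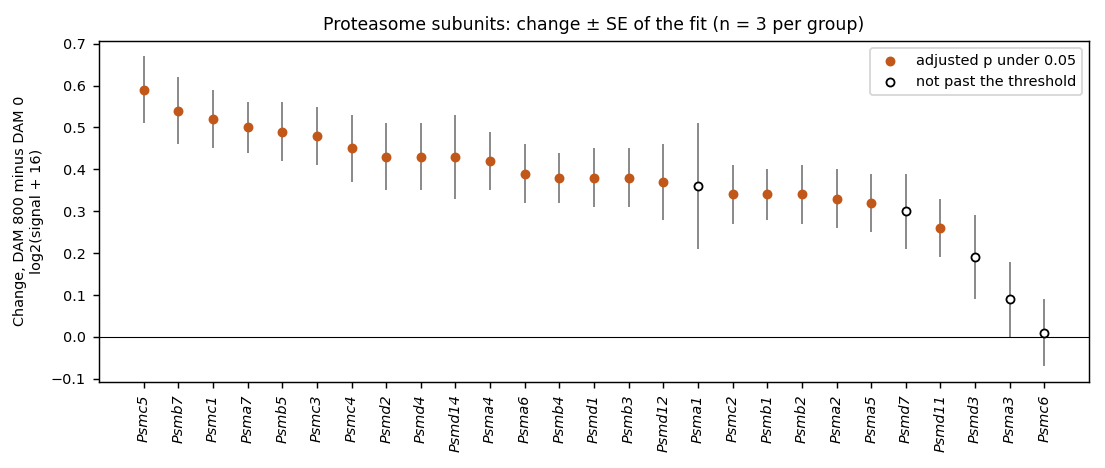
Change of the 27 tested proteasome subunits (DAM 800 minus DAM 0, log2 scale) with the standard error of the fit, sorted by size. Every value is above 0, from 0.59 for Psmc5 to 0.01 for Psmc6, and 22 of them (filled) passed the threshold.

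Genes of cholesterol synthesis rose in part. Of 20 tested members of the list of cholesterol synthesis and uptake 7 rose and none fell (median 0.51), beside 2.80% of all genes called higher. In 13 every DAM 800 animal was above every DAM 0 animal, as in 11.7% of all genes. Sqle, the squalene epoxidase that commits squalene to sterols, had 1898, 1865 and 929 in DAM 800 and 488, 302 and 370.5 in DAM 0 (change 1.93 ± 0.35, limma adjusted p = 0.00812). Idi1, which isomerises isoprenoid units, had 10734, 9666 and 6238 in DAM 800 and 3487, 2275 and 2812 in DAM 0 (change 1.61 ± 0.28, limma adjusted p = 0.00668). The third dosed animal was the lowest of its group for both, as it was for Abcg5 and Abcg8. The sterol demethylation enzymes Msmo1 and Cyp51 rose by 1.38 ± 0.29 and 0.89 ± 0.20, mevalonate kinase Mvk by 0.63 ± 0.14, the desaturase Sc5d by 0.61 ± 0.14 and the thiolase Acat2 by 1.17 ± 0.30. Leaving out 1 array left 2 to 4 members called: 4, 3 and 2 without DAM 0 replicates 1, 2 and 3, and 2, 3 and 4 without DAM 800 replicates 1, 2 and 3. Idi1 and Sqle kept their calls in each of the 6, and Acat2 (limma adjusted p = 0.0484 with all arrays) lost its call in each. Msmo1 and Cyp51 lost theirs without DAM 0 replicate 2 or 3 or DAM 800 replicate 1 or 2 (adjusted p 0.0694 to 0.0823 and 0.0929 to 0.125), Mvk without any array but DAM 800 replicate 2 (0.0625 to 0.126) and Sc5d without any but DAM 0 replicate 2 (0.051 to 0.12). The regulator Srebf2 changed by 0.02 and the sterol sensor partner Insig1 by -0.37, neither called.

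Bases of the Idi1 promoter are shown for the CCAAT box, a site of the factor NF-Y that acts beside SREBP. CCAAT, on either strand, was present in 13 of 16 tested cholesterol genes with a promoter in the RefSeq table (81.2%) and in 4 of the 6 called (66.7%), in 12 of 17 tested fatty acid and triglyceride synthesis genes (70.6%) and 4 of the 6 called (66.7%), in 13 of 24 tested proteasome genes (54.2%) and 10 of the 19 called (52.6%), and in 34.3% of all rat promoters. TCACNCCAC, a form of the sterol response element, was in none of the 16 and in 0.976% of all. The window before the Idi1 start is chr17:66547525-66547774 on the minus strand of GRCr8, written in the sense of the gene, and the capitals mark both matches, which read CCAAT on the opposite strand.
Idi1: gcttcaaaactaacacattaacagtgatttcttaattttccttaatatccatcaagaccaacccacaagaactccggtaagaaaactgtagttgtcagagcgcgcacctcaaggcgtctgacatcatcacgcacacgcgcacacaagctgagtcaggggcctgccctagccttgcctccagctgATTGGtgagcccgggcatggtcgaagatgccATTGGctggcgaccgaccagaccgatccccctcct

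Some genes of fatty acid synthesis fell. Of 22 tested genes of fatty acid and triglyceride synthesis 7 fell and 1 rose (median -0.18, with 1.91% of all genes called lower). Srebf1, the transcription factor gene of this programme, had 4203, 3262 and 3487 in DAM 800 and 6878, 7461 and 8053 in DAM 0 (change -1.03 ± 0.12, limma adjusted p = 0.000481). Fatty acid synthase Fasn had 5514, 3423 and 3832 in DAM 800 and 9187, 12796 and 11378 in DAM 0 (change -1.40 ± 0.19, limma adjusted p = 0.00129). Every dosed animal was below every control for both. The desaturase Scd had 5287, 2615 and 8860.5 in DAM 800 and 23242, 32042 and 31514 in DAM 0, a change of -2.52 ± 0.46 (limma adjusted p = 0.00938). Acaca and Acly, which make malonyl-CoA and acetyl-CoA, changed by -0.83 ± 0.14 and -0.91 ± 0.17, and the lipogenic regulator Thrsp by -0.78 ± 0.15. Pnpla3, a lipid droplet protein, changed by -1.82 ± 0.46 (limma adjusted p = 0.0482) and lost its call without any 1 of the 6 arrays (adjusted p 0.0666 to 0.163). Malic enzyme Me1, which supplies NADPH and is also on the NRF2 list, rose by 0.69 ± 0.09. Fads1, Fads2, Dgat2 and Elovl6 were not called, with changes of -0.03, -0.02, -0.06 and 0.35.

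**Figure D4:**
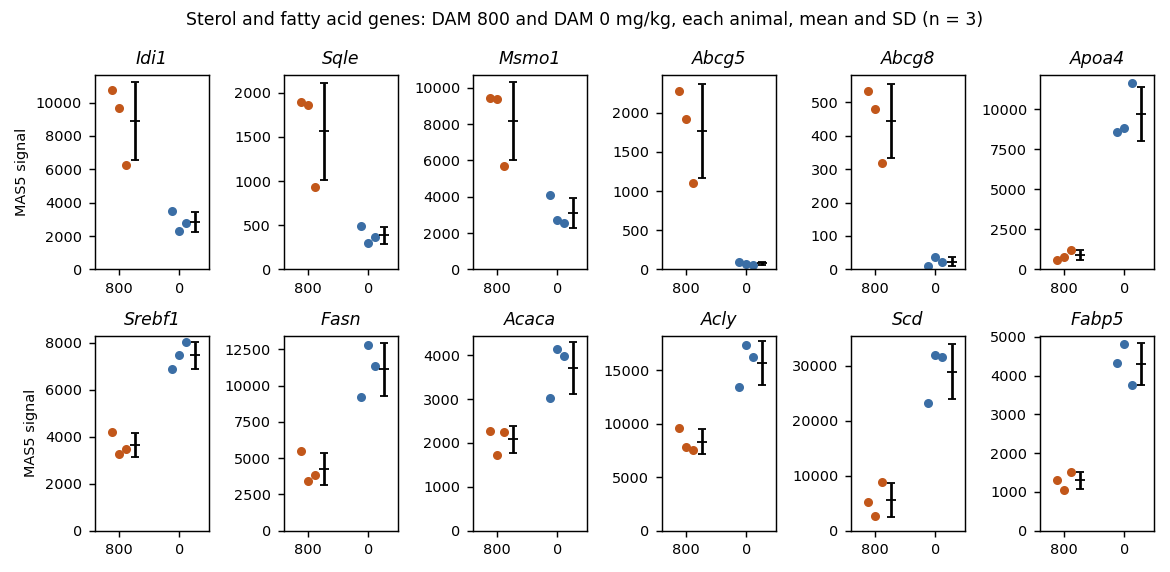
MAS5 signal (linear axis from 0) of 12 sterol and fatty acid genes in the 3 DAM 800 animals (left, orange) and the 3 DAM 0 animals (right, blue), with the group mean and SD beside the points. Idi1, Sqle, Msmo1, Abcg5 and Abcg8 are higher in DAM 800, and Apoa4, Srebf1, Fasn, Acaca, Acly, Scd and Fabp5 are lower.

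Genes of fatty acid burning gave no common direction. Among 38 tested PPARalpha targets and oxidation genes 3 rose and 4 fell, with a median of 0.11, beside 2.80% of all genes called higher and 1.91% lower. Cyp4a1, a fatty acid hydroxylase and standard PPARalpha target, had 3645, 4026 and 3375 in DAM 800 and 6362, 6993 and 6762 in DAM 0 (change -0.86 ± 0.10, limma adjusted p = 0.000417). Angptl4, a lipase inhibitor, changed by -1.39 ± 0.17 and Pdk4, which restrains glucose oxidation, by -0.94 ± 0.13, while the mitochondrial carrier Ucp3 rose by 1.33 ± 0.25. The Ucp3 call was lost without DAM 800 replicate 3 (adjusted p = 0.051), and a second Ucp3 probe set changed by -0.27 (limma adjusted p = 0.851). The remaining calls were the thioesterase Acot8 (0.63 ± 0.13), the reductase Decr1 (0.32 ± 0.08) and the peroxisomal enzyme Ehhadh (-0.49 ± 0.12). Acot8 lost its call without DAM 0 replicate 1, DAM 800 replicate 1 or DAM 800 replicate 3 (adjusted p 0.0512 to 0.0597), and Ehhadh without DAM 0 replicate 2 or 3 or DAM 800 replicate 2 or 3 (0.092 to 0.13). In the list of gluconeogenesis and amino acid breakdown 4 of 30 fell and none rose: Sds, the glycine decarboxylase Gldc (-0.79 ± 0.11), the histidine ammonia-lyase Hal (-1.09 ± 0.18) and the tyrosine aminotransferase Tat (-0.99 ± 0.20). The Tat call was lost without DAM 0 replicate 1 (adjusted p = 0.05), DAM 0 replicate 3 (adjusted p = 0.0606), DAM 800 replicate 1 (adjusted p = 0.0725) or DAM 800 replicate 3 (adjusted p = 0.0726). None of 12 urea cycle and glutamine genes was called by limma (median -0.16), and 6 had an unadjusted p under 0.05, beside 1914 of all 10670 genes.

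In bile acid synthesis 2 of 15 genes rose, the reductases Akr1d1 (0.74 ± 0.12) and Akr1c14 (0.49 ± 0.07). Over all genes 2.80% were called higher and 1.91% lower. A second Akr1d1 probe set changed by 0.11 (limma adjusted p = 0.866). Cyp7a1, which catalyses the rate-limiting step, had 1872, 4099.5 and 2760.1 in DAM 800 and 3868, 3475 and 7911 in DAM 0. The groups overlapped and the change of -0.77 (95% interval -1.53 to -0.01) was not called (limma adjusted p = 0.303). Of 13 ABC exporters 6 rose and 1 fell: beside Abcg5, Abcg8 and Abcb1a, Abcc3, which exports glucuronides to blood, had 251, 223 and 129 in DAM 800 and 43.3, 42.6 and 61.7 in DAM 0 (change 1.70 ± 0.21, limma adjusted p = 0.000844). The phospholipid exporter Abcb4 rose by 0.55 ± 0.13, a call lost without any 1 of the 6 arrays. The canalicular exporter Abcc2 rose by 0.44 ± 0.09, a call lost without DAM 0 replicate 3 (adjusted p = 0.0652), DAM 800 replicate 1 (adjusted p = 0.0628) or DAM 800 replicate 3 (adjusted p = 0.08). Abcc6 fell by 0.48 on the log2 scale, a call lost without DAM 0 replicate 2, DAM 800 replicate 1 or DAM 800 replicate 3 (adjusted p 0.0504 to 0.0841). The bile salt pump Abcb11 changed by 0.04 without a call. Of 10 uptake transporters 2 rose, Slco1a4 by 0.86 ± 0.08 and Slco1a1 by 0.56 ± 0.13, and the anion transporter Slc22a8 fell by 0.44 on the log2 scale. The Slco1a1 call was lost without DAM 0 replicate 2, DAM 800 replicate 1 or DAM 800 replicate 3 (adjusted p 0.0696 to 0.11).

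Markers used to trace altered liver foci in rats had 7 rises and no fall among 11 tested, with a median of 0.86. Over all genes 2.80% were called higher and 1.91% lower. The risers were Gpx2, Aldh1a1, Ggt1, Abcc3, Akr7a3, Ephx1 and Nqo1, all of which but Aldh1a1 also stand on the NRF2 list. Gstp1, the placental form of glutathione S-transferase and the classic marker of such foci, had 1006, 1039.6 and 843 in DAM 800 and 1025, 795 and 849 in DAM 0. Those ranges overlapped, with a change of 0.11 (95% interval -0.32 to 0.55, limma adjusted p = 0.847), and alpha-fetoprotein Afp changed by -0.32 without a call. None of 38 tested cell cycle genes was called by limma (median -0.17), and 2 had an unadjusted p under 0.05, beside 1914 of all 10670 genes. Mki67, the proliferation marker, had 77.4, 109.9 and 79.9 in DAM 800 and 74.8, 275 and 119 in DAM 0, and the second DAM 0 animal was the highest of all 6. Its change of -0.56 had a 95% interval of -1.48 to 0.37. Among 14 p53 targets 3 rose, Ephx1, Cdkn1a and the p53 inhibitor Mdm2 (0.58 ± 0.09), and Phlda3 fell by 0.59 on the log2 scale, a call kept only without DAM 0 replicate 3 (adjusted p 0.0649 to 0.153 without any other array). The cell cycle inhibitor Cdkn1a had 1789, 1913 and 1823 in DAM 800 and 947, 1415 and 1280.2 in DAM 0 (change 0.61 ± 0.15, limma adjusted p = 0.0352), a call lost without any 1 of the arrays but DAM 0 replicate 2 (adjusted p 0.0581 to 0.112).

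Lists of secretory and inflammatory genes held few calls, where 4.71% of all genes were called, 2.80% higher and 1.91% lower. At that share, lists this small can hold few or no calls even where they do not differ from all genes. None of 17 acute phase genes, 18 plasma carriers or 30 complement and coagulation genes was called by limma. Unadjusted p was under 0.05 for 2, 3 and 1 of them, and for 1914 of all 10670 genes. Of 27 interferon and antigen presentation genes 1 was called, Ifit2, which rose by 0.68 ± 0.11. Of 20 endoplasmic reticulum chaperones only Herpud1, a component of protein disposal from that compartment, rose, by 1.13 ± 0.18. Sex-biased liver genes moved in part: 4 of 12 genes known as female-predominant rose, Sult2a2, Slco1a4, the prolactin receptor Prlr (1.74 ± 0.20) and Abcc3, of which all but Prlr are also CAR and PXR targets. Of 15 male-predominant genes 3 rose, Cyp3a18, Slco1a1 and the steroid dehydrogenase Hsd17b2 (0.82 ± 0.10), and 3 fell, the strongest being Stac3 at -1.17 ± 0.17, while Mup5 (-0.66) kept its call only without DAM 0 replicate 2 (adjusted p 0.0806 to 0.117 without any other array) and Hao2 (-0.40) lost it without any 1 of the 6 (0.0562 to 0.173). Beside these, the main male P450, Cyp2c11, had a change of -0.10 (95% interval -0.35 to 0.16, limma adjusted p = 0.753). Among 18 clock genes Noct, an RNA-related phosphatase with a daily rhythm, changed by -1.61 ± 0.28 and Nfil3, a rhythm-setting repressor, by -0.55 ± 0.09. Npas2 (-0.46) lost its call without DAM 0 replicate 1 or DAM 800 replicate 2 or 3 (adjusted p 0.0539 to 0.0634), and Usp2 (0.51) without any 1 of the 6 arrays (adjusted p 0.0672 to 0.161).

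Markers of other liver cells were measured beside these results. In bulk tissue, fewer cells of a type and less RNA per cell cannot be told apart. None of 13 Kupffer cell and macrophage markers, 20 stellate and matrix genes, 10 sinusoidal endothelial, 9 T and NK cell and 4 B and plasma cell markers was called by limma. Unadjusted p was under 0.05 for 3 stellate and matrix genes and 1 endothelial marker, and for 0 of the macrophage, T, NK, B and plasma cell markers. Over all genes 4.71% were called, and unadjusted p was under 0.05 for 1914 of 10670. The summed signal of the macrophage markers was 20827 to 33565 in DAM 800 and 25725 to 27101 in DAM 0. Of 4 tested cholangiocyte markers (median change 0.47) 3 had an unadjusted p under 0.05. Only the adhesion protein Epcam was called, with a rise of 0.86 ± 0.14. Krt19, a keratin of bile ducts, changed by -0.25 without a call, and Krt7, Spp1 and Cftr were below the filter. The summed signal of the 4 was 16004 to 20678 in DAM 800 and 10087 to 16167 in DAM 0, and its part in the results was not tested.

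The changes at 800 mg/kg were set beside those at 2000 mg/kg. DAM 2000 minus DAM 0, which shares the DAM 0 animals, called 2296 of 18625 probe sets (12.3%), 1158 higher (6.22%) and 1138 lower (6.11%). Per gene these were 1581 of 10670 (14.8%), 890 higher (8.34%) and 691 lower (6.48%). DAM 2000 minus DAM 800, tested directly in the same fit, called 207 (1.11%), 73 higher at 2000 (0.392%) and 134 lower (0.719%), and 135 genes (1.27%), 58 higher (0.544%) and 77 lower (0.722%). That count was 121 and 123 without DAM 800 replicates 1 and 2, and 125 without DAM 2000 replicate 2. In the lists, 14 of 18 CAR and PXR targets rose at 2000 (median 0.96, against 0.85 at 800), 13 of 23 NRF2 targets (0.66, against 0.54) and 24 of 27 proteasome subunits (0.57, against 0.38). Of the cholesterol genes 13 rose and 1 fell at 2000 (median 0.65), and of the fatty acid synthesis genes 1 rose and 8 fell (median -0.32). Abcg5 was 922, 1694 and 2906 at 2000 mg/kg, within and around the range of the 800 mg/kg animals, and the difference of -0.03 had a 95% interval of -0.80 to 0.73. Abcg8 differed by -0.01 (interval -0.75 to 0.73), Psat1 by -0.11 (interval -0.91 to 0.70) and Slc6a6 by 0.14 (interval -0.24 to 0.53). These intervals hold differences in both directions, so equal levels are not shown. Sult2a2 was higher still, with 12382, 8437 and 9201 at 2000 mg/kg (2.77 ± 0.35 above 800, limma adjusted p = 0.00165). Abcc3 was 2.33 ± 0.21 above, Gsta3 1.68 ± 0.22, Ggt1 1.21 ± 0.14 and Ces2c 1.21 ± 0.14, and further drops were measured for Apoa4 (-2.25 ± 0.25) and Scd (-2.86 ± 0.46).

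Some genes differed between the doses without a call at 800 mg/kg. Bcl6, a repressor that responds to growth hormone, had signals of 1653, 5542 and 6439.6 at 0, 4586, 4823 and 5387 at 800, and 254, 199 and 343 at 2000 mg/kg. The first DAM 0 animal stood apart, the change at 800 was 0.34 ± 0.38 (limma adjusted p = 0.736) and -0.28 without that animal, and the step to 2000 was -4.17 ± 0.38 (limma adjusted p = 0.000223). The nuclear receptor Nr0b2 (SHP), which represses Cyp7a1, changed by -0.08 at 800 and by -2.50 ± 0.19 from 800 to 2000. The cytokine signalling inhibitor Cish stepped up by 2.60 ± 0.29, and the liver transcription factors Onecut1 and Foxa2 by 2.90 ± 0.33 and 1.95 ± 0.22. The repressor family member Zfp354a stepped by -2.89 ± 0.28. Onecut1 was 97.1, 132 and 135 at 800 mg/kg, against 446, 313 and 197 at 0, and that change of -1.23 ± 0.33 was not called (limma adjusted p = 0.0631), but was without DAM 0 replicate 3 (adjusted p = 0.0316).

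Other genes were called at 800 mg/kg and lay near the controls at 2000. Herpud1 had 3701, 6853 and 4866 at 0 mg/kg, 10501, 11929.5 and 10431 at 800, and 5005, 3756 and 4068 at 2000. Its difference from DAM 0 was 1.13 at 800 and -0.23 at 2000 (limma adjusted p = 0.444), and the step between the doses was -1.36 (limma adjusted p = 0.00183). Pdk4 had changes of -0.94 at 800 and -0.03 at 2000, with a step of 0.92 (limma adjusted p = 0.00456). For Nfil3 they were -0.55 and 0.21 with a step of 0.76 (limma adjusted p = 0.00114). These contrasts share the DAM 800 animals, so that an extreme value in those animals enters both the change and the step.

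**Figure D5:**
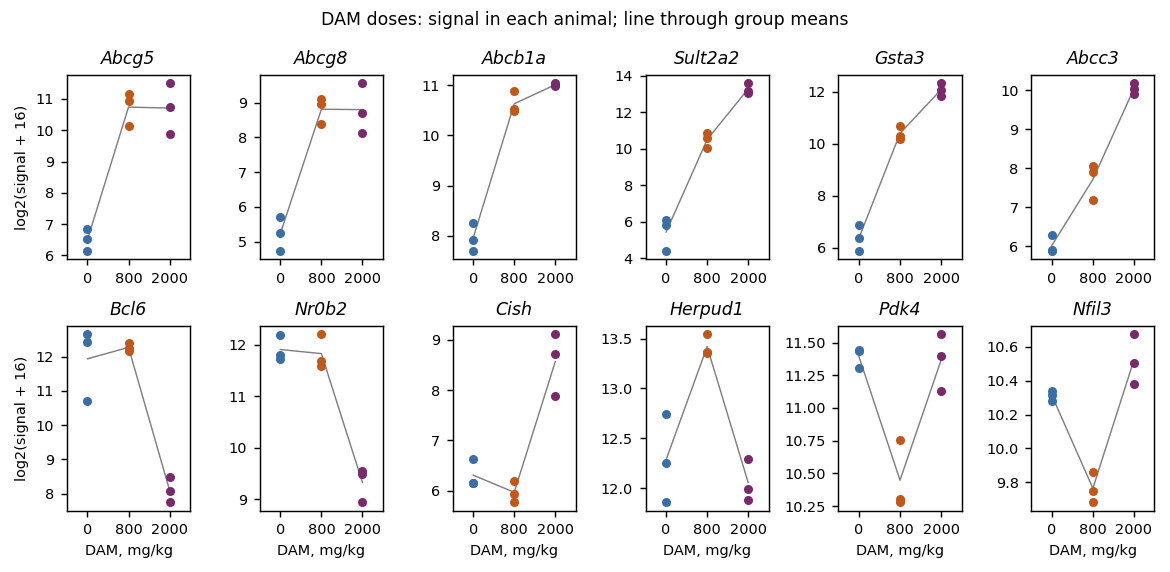
Signal of 12 genes as log2(signal + 16) in each animal at 0, 800 and 2000 mg/kg DAM, with a line through the group means. Abcg5 and Abcg8 have steps of -0.03 and -0.01 from 800 to 2000, with intervals that hold differences in both directions, Sult2a2, Gsta3 and Abcc3 are higher at 2000, Bcl6 and Nr0b2 are lower at 2000 than at 800, and Herpud1, Pdk4 and Nfil3 lie nearer to the 0 mg/kg animals at 2000 than at 800, or past them.

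The effect of DAM 800 was compared with that of PBO 500, the lowest dose of the other compound, as a difference of the 2 changes over all 21 arrays. Strain, route, days of dosing and tissue storage differ with the compound and cannot be told apart from it. The difference was called for 14 of 18625 probe sets (0.0752%), 6 with the DAM change above (0.0322%) and 8 below (0.043%). Per gene it was called for 8 of 10665 (0.075%), 3 above (0.0281%) and 5 below (0.0469%). The count of probe sets was 9 without PBO 500 replicate 3, DAM 0 replicate 2, DAM 800 replicate 1 or DAM 800 replicate 2, 8 without DAM 800 replicate 3, and 10 to 13 without any other single array. Abcg5 had 853, 863 and 614 in PBO 500 and 650.4, 798 and 958 in PBO 0, a change of -0.04 ± 0.45, against 4.23 in DAM. The DAM 0 controls were at 54.7 to 100.2, below all 6 PBO 500 and PBO 0 animals. Abcb1a changed by 0.12 ± 0.28 in PBO 500, against 2.68 in DAM 800, a difference of 2.55 ± 0.39 (limma adjusted p = 0.00782). Fndc5, the gene of the irisin precursor, differed by 1.72 ± 0.26, with changes of 1.48 in DAM 800 and -0.24 in PBO 500.

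PBO 500 exceeded DAM 800 for Abcc3 and Ces2c, with changes of 4.97 ± 0.28 and 4.25 ± 0.19 in PBO 500. The differences were -3.28 ± 0.39 and -2.32 ± 0.27 (both limma adjusted p = 0.000492). The sugar phosphate carrier Slc37a1 had no called change in DAM 800 (-0.39) and 1.71 in PBO 500. Ehhadh, a peroxisomal oxidation enzyme, and Mgst2, a microsomal glutathione S-transferase, differed by -1.54 ± 0.28 (limma adjusted p = 0.0397) and -0.67 ± 0.13 (limma adjusted p = 0.0437). Both lost that call without most single arrays, with adjusted p of 0.0562 to 0.152 for Ehhadh and 0.0861 to 0.161 for Mgst2 where it was lost.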

How the data were processed

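Liver RNA of 21 rats was measured on 1 rat expression array per animal. The authors deposited linear signal intensity values, and the submitters' processing notes name MAS5 as the tool. Its version, scaling target and detection calls are not given in the sources used here. On each array these deposited intensity values have a trimmed mean of 500.2 to 500.3. Groups came from the sample titles. Of 31042 non-control probe sets, 20826 carry 1 gene symbol, 436 several and 9780 none, and only the first kind were named.

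Probe sets with a mean log2(signal + 16) above the 40th percentile were tested on that scale with limma 3.58.1 (lmFit, eBayes with an intensity trend, R 4.3.3) over all 9 DAM arrays, and the difference from PBO over all 21. P-values were adjusted by Benjamini-Hochberg, threshold 0.05. Figures were drawn with matplotlib 3.10.9. The procedure was tested on simulated data. Alternatives changed the pseudocount, filter, normalization, variance model, array weights, replicate block and arrays included.

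Named genes were the 15 largest called changes in each direction with separated groups, up to 6 members of a list by adjusted p, the 5 largest differences in each direction from DAM 2000 and PBO 500, and a set of fixed genes. Members given beyond that rule were chosen after their values were seen. The comparison, the 44 lists and the motifs were chosen with earlier results of these data known. Lists share genes. Promoters are from RefSeq (GRCr8), and only 250 bases before each start were searched.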

Additional observations from a re-analysis of the deposited data

Results flagged for a closer look

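In 8 named genes the change in DAM 800 livers differed from the change in PBO 500 livers, by the test of the difference over all 21 arrays. For Abcg5 the difference was 4.28 ± 0.64 (limma adjusted p = 0.00613), with signals of 2281, 1926 and 1108 in DAM 800 and 100.2, 76.0 and 54.7 in DAM 0, and of 853, 863 and 614 in PBO 500 and 650.4, 798 and 958 in PBO 0. For Abcb1a it was 2.55 ± 0.39 (limma adjusted p = 0.00782), with 161, 308 and 248 in PBO 500 and 217, 162 and 266 in PBO 0. For Fndc5 it was 1.72 ± 0.26 (limma adjusted p = 0.00613), with 334, 263 and 337 in DAM 800 and 100.1, 105 and 97.1 in DAM 0. Fndc5 had 147, 153 and 199 in PBO 500 and 196, 220.4 and 178 in PBO 0.

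The difference had the other sign in the remaining genes, whose change was greater in PBO 500. For Abcc3 it was -3.28 ± 0.39, with 1109, 1525 and 1509 in PBO 500 and 18.0, 15.7 and 63.3 in PBO 0. For Ces2c it was -2.32 ± 0.27, with 17986, 14399 and 12095 in PBO 500 and 878, 548 and 885 in PBO 0. Slc37a1 differed by -2.10 ± 0.33 (limma adjusted p = 0.0103), with 99.2, 91.0 and 131 in DAM 800 and 108, 140.0 and 196 in DAM 0, and with 153, 140.3 and 167 in PBO 500 and 23.8, 39.1 and 47.1 in PBO 0. Ehhadh differed by -1.54 ± 0.28 and Mgst2 by -0.67 ± 0.13, and both lost the call without most single arrays. Compound, strain, route, duration and tissue storage cannot be told apart in these differences.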

How the results depend on the processing

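The 705 calls became 235 with a variance estimate that ignores the intensity trend and 382 to 575 with 1 array left out, and lay between 548 and 804 under 9 other settings. The 207 differences between the DAM doses became 60 without the trend and 121 to 198 with 1 array left out. The 14 differences from PBO 500 became 9 without the trend, 42 with array weights, 43 with only the arrays compared and 8 to 13 with 1 array left out. In the lists, ignoring the trend left 9 CAR and PXR targets, 6 proteasome subunits and 0 cholesterol genes higher, and 2 fatty acid synthesis genes lower. For the cholesterol list, no filter gave 3 and 1 array left out gave 2 to 4. For proteasome subunits 1 array left out gave 11 to 20. Among the named genes followed, no called change of DAM 800 minus DAM 0 turned its sign under these settings, and other called probe sets were not followed for sign. Among uncalled changes, Bcl6 was -0.28 and Foxa2 0.09 without DAM 0 replicate 1, Nr0b2 was 0.06 without DAM 0 replicate 2 and 0.04 without DAM 800 replicate 1, and Cyp1a2 was 0.02 without DAM 800 replicate 1.

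Same-numbered DAM arrays did not deviate together (correlations of -0.06, -0.04 and 0.01 between DAM 800 and DAM 0), so the numbers were not taken as pairs. With the replicate block there were 630 calls for DAM 800, 172 between the doses, 15 against PBO 500 and 4 in the cholesterol list. Of 117 named genes followed, 104 were called in the main fit. Of these 104, 45 lost their call when the trend was ignored, 14 without the filter, 8 with the block, 7 with median scaling, and 16 to 23 with 1 array left out. Of 37 further probe sets of named genes, 16 passed in the same direction, 20 had the same sign without passing and 1, of Ucp3, had the opposite sign without passing. With 3 arrays per group, genes of low signal have wide errors.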

Other observations

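Of the 503 genes called in DAM 800, 384 stood on none of the lists, 209 higher and 175 lower. The genes named here were chosen after their values were seen. Pklr, the liver pyruvate kinase, had signals of 1530, 979 and 1747 in DAM 800 and 2976, 3712 and 3762 in DAM 0 (change -1.32 ± 0.20, limma adjusted p = 0.00321). The fructose carrier Slc2a5 changed by -1.33 ± 0.23 and Tkfc, which phosphorylates glyceraldehyde from fructose, by -1.05 ± 0.17. Every DAM 800 animal was below every DAM 0 animal for all of these. The phosphodiesterase Pde4b changed by -1.28 ± 0.16, Tsc22d1, a transcriptional regulator, by -1.15 ± 0.12 and Acmsd, which steers tryptophan breakdown away from NAD, by -0.90 ± 0.13.

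Among the rises, Acsm2, a medium-chain acyl-CoA synthetase, had 914, 1214 and 685 in DAM 800 and 193, 259 and 264 in DAM 0 (change 1.88 ± 0.19, limma adjusted p = 0.000223). Cidea, a lipid droplet protein, had 1977, 2170 and 2088 in DAM 800 and 693, 958 and 669 in DAM 0 (change 1.43 ± 0.16, limma adjusted p = 0.000348). The groups of both genes were apart. Ablim3, an actin-binding protein, rose by 1.86 ± 0.15, the crystallin Cryl1 by 1.83 ± 0.18, the phospholipase Pla2g12a by 1.83 ± 0.18, annexin Anxa7 by 1.60 ± 0.14, the chromatin protein Hmgn3 by 1.40 ± 0.12 and pirin, Pir, by 1.28 ± 0.14.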
